A study of Homo sapiens with 27 samples.

Results

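Ribosome biogenesis factors are the proteins that make, fold, modify, cut and export the precursors of the ribosome's subunits without being part of the finished ribosome. The list held 58 genes, sorted by textbook role into 26 factors of the small (40S) subunit, 19 of the large (60S) subunit, 7 core proteins of the small nucleolar ribonucleoproteins (snoRNPs) and 6 general nucleolar proteins. A gene was read by its brightest probe set among those annotated to a single gene. Of the 58, 56 could be read this way and all 56 passed the filter on dim signal, out of 12386 genes tested. PWP2, a small-subunit factor, had only probe sets that name several genes, and GNL3, a large-subunit factor, was not matched to a probe set. Both are not analysed here, which left 25 small-subunit and 18 large-subunit factors.

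Expression was measured on 27 arrays of 3 human cancer lines. The lung cancer line EBC-1 and the gastric cancer line MKN-45 depend on the receptor tyrosine kinase MET, per the labels. HCC827, a further non-small cell lung cancer line, has active c-Met without depending on it and served as the negative control. Each line received the selective c-Met inhibitor SGX-523 (1 uM, 24 h or 48 h) or DMSO, which made 9 groups of 3 biological replicates. How long DMSO was given is not labelled, and both times of a line were set against the same 3 DMSO arrays, and each condition was studied in 1 or 2 established lines only. In such bulk RNA, fewer cells that express a gene and less RNA of it per cell cannot be told apart.

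Ribosomes are built in the nucleolus, where RNA polymerase I copies a long precursor of the 18S, 5.8S and 28S rRNAs. The small-subunit processome gathers on the growing precursor, the snoRNPs guide its chemical modification, and further factors remove the spacers and bring the subunits to the cytoplasm. Most of these genes are transcribed together with cell growth, and the transcription factor MYC, which binds the E-box CACGTG, is a well-known activator of many of them.

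Values are deposited log2 signals, and a fold change is a difference of log2 group means with its standard error (SE, n = 3 arrays per group). Called means an adjusted p under 0.05 (limma, Benjamini-Hochberg across every gene tested in the comparison). Precision is limited by having 3 arrays in a group. The median SE of a difference between groups was 0.11 over all genes and 0.082 over the 56 factors. Array medians lay between 5.02 and 5.14 in EBC-1 and MKN-45 and between 5.71 and 5.73 in HCC827, so levels were compared only within a line or between EBC-1 and MKN-45, and a value near the array median is dim. Replicate 3 of HCC827 at 24 h stood apart from its group, with r of 0.962 to 0.967 to the other HCC827 arrays against at least 0.9958 within the other groups, and a residual SD of 0.367 against at most 0.115. It enters the spread shared by all comparisons. Where leaving it out changed a call against DMSO of a factor with array values given here, that value stands beside it. In EBC-1 and MKN-45 this was not read for FBL or for factors given by fold changes alone. Among the latter, RRS1, UTP15, WDR75 and NOC4L were not called in MKN-45 at 48 h, and their calls without that array are not given. Treated EBC-1 and MKN-45 arrays read higher than DMSO by 0.327 to 0.349 (log2) in the external control probe sets, and their ACTB 3 prime to 5 prime log2 ratio was 3.68 to 4.16 against 3.36 and 3.53 in DMSO. In HCC827 the external controls moved by -0.105 and -0.0773, and the ACTB ratio was at most 2.14 with DMSO, 2.24, 2.29 and, on replicate 3, 3.40 at 24 h, and 2.27 to 2.44 at 48 h, above all DMSO arrays. With the external controls set equal on all arrays, the median of all genes became -0.27 to -0.30 in EBC-1 and MKN-45, and 54 or 55 factors were lower and 0 higher in each comparison, where 47.5% to 49.2% of all genes were lower under that scaling. The part of the ACTB shift in the results was not tested. Of 8 epithelial markers, 6 lay above the array median on all arrays of EBC-1 (not CDH1 and ESRP1) and 8 on all arrays of MKN-45 and HCC827. At most 2 of 8 fibroblast, 3 of 7 leukocyte and 1 of 6 endothelial markers did so in any group.

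Nearly the whole list fell in both lines that depend on MET. In EBC-1, 54 of the 56 factors were called lower at 24 h and 1 higher, with a median log2 fold change of -1.26, where 28.1% of all genes tested were called lower and 31.2% higher and the median of all was 0.036. At 48 h, 54 were again lower and 0 higher (median -1.27, against 28.9% of all genes lower and 32.8% higher). MKN-45 gave 50 lower and 1 higher at 24 h (median -0.74, 26.9% of all genes lower, 33.4% higher) and 47 lower and 1 higher at 48 h (median -0.66, 26.2% lower, 36.4% higher). A fall of at least 2-fold was reached by 35 and 36 factors in EBC-1 and by 15 and 12 in MKN-45, where 8.16%, 8.91%, 7.11% and 7.1% of all genes reached it. In HCC827, 0 factors were called at 24 h, and 46 were called lower and 0 higher at 48 h, with a median of -0.40 and 0 at 2-fold (10.7% of all genes lower, 11.6% higher, and 0.0565% lower by 2-fold). The ACTB ratio was above all DMSO arrays in that group too (2.27 to 2.44 against at most 2.14), and its part in the result was not tested. The number of factors lower was 28 with the external controls set equal (3.19% of all genes lower) and 25 in a fit of HCC827 alone (4.39%). Before any fold change, the arrays themselves did not overlap for most factors: all 3 treated arrays lay below all 3 DMSO arrays for 54, 54, 51 and 50 factors in the 4 comparisons of EBC-1 and MKN-45, against 33%, 33.3%, 31.1% and 30.6% of all genes. In HCC827 the same held for 10 factors at 24 h (6.44% of all genes) and for 53 at 48 h (26.2%).

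**Figure D1:**
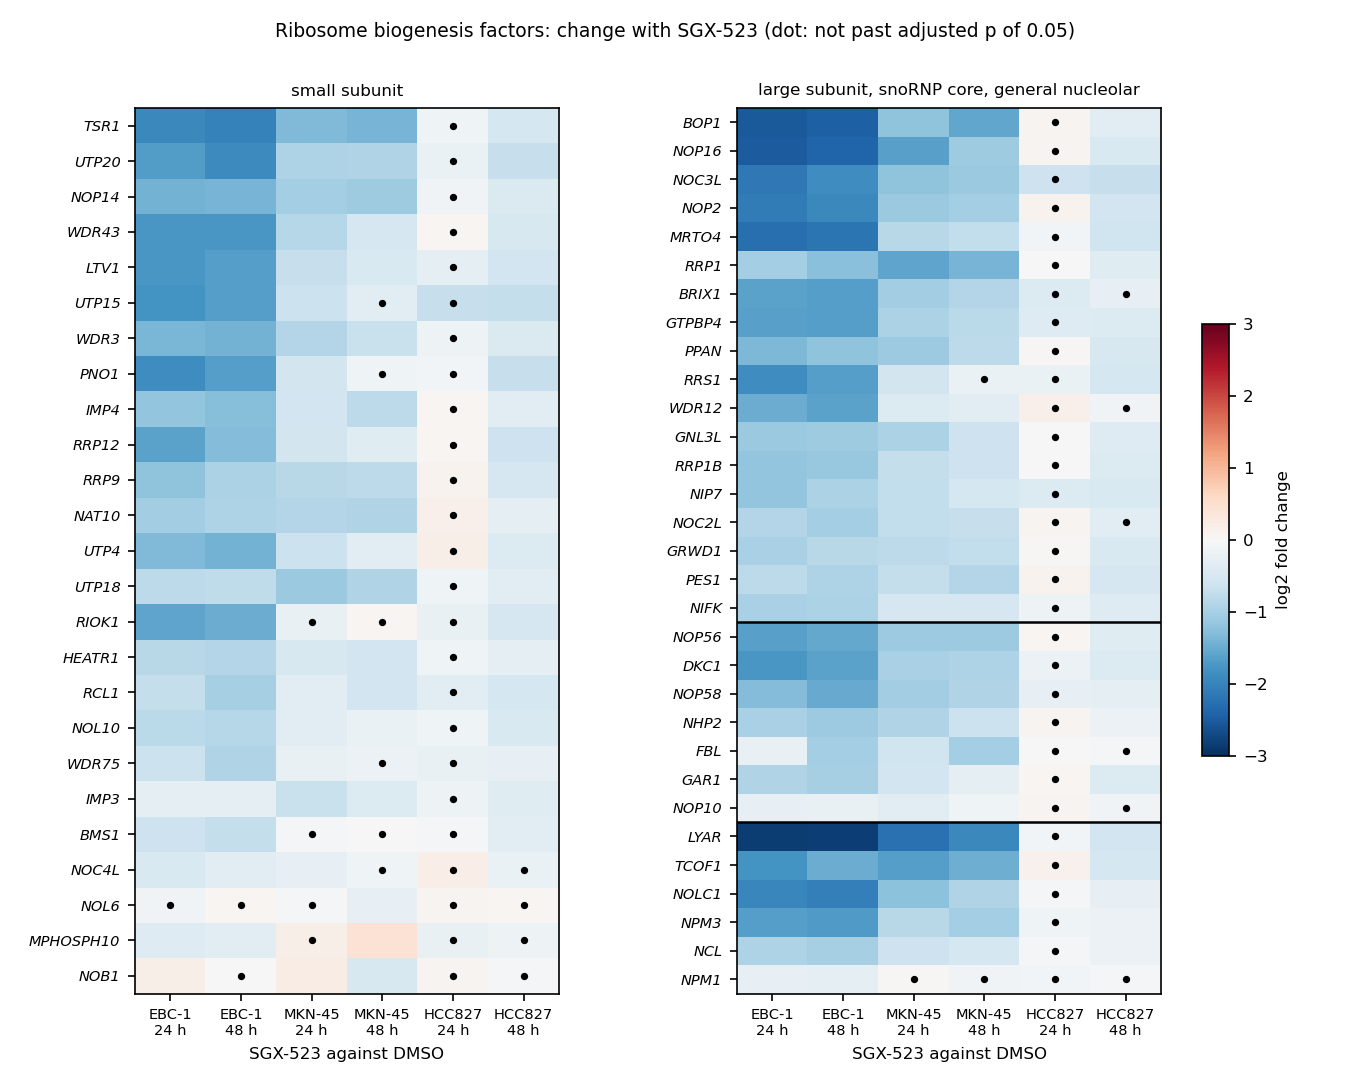
Log2 fold change of each of the 56 factors (rows, by role and then by mean over EBC-1 and MKN-45) under SGX-523 against DMSO in 6 comparisons (columns). Blue is lower and red is higher, and a dot marks a change that was not called. EBC-1 and MKN-45 are blue in nearly every row, with LYAR deepest, HCC827 is pale at 24 h with a dot in all 56 rows, and 46 rows are called lower in HCC827 at 48 h.

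Across the 4 comparisons of EBC-1 and MKN-45 with DMSO, 45 of the 56 factors were called lower in all 4, against 15.3% of all genes tested. Another 5 were lower in 3, 4 were lower in 2 and 2 were lower in 1. By role, the factors lower in all 4 were 17 of 18 for the large subunit, 16 of 25 for the small subunit, 7 of 7 for the snoRNP core and 5 of 6 for the general nucleolar proteins. Both times of a line share their DMSO arrays. The members of the list and their sorting were chosen with earlier results of these data known, so these shares describe the list.

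The promoters of factors that fell are shown because the members moved together and because CACGTG, the E-box, stood at or near the start in many of them. RefSeq (GRCh38.p14) gave a window from 250 bases before to 50 bases from the start on for 47 of the 56 factors. CACGTG, which reads the same on both strands, was found in 20 of the 47 (42.6%) and in 1248 of the 10123 genes tested that had a window (12.3%). The 4 stretches of LYAR, NOC3L, MRTO4 and UTP20 come from factors with low mean changes, and only windows that hold CACGTG were shown. They are thus no sample of the factors that fell most. NOP16 and TSR1, with mean changes of -1.90 and -1.67, had windows without CACGTG. Another window of LYAR lacked it too, and BOP1, TCOF1 and NOLC1 had no window. NOP10, chosen after its values were seen, had CACGTG and a small change. Each stretch runs from 100 bases before to 30 bases from the start on, 5′ to 3′ on the gene's strand, with CACGTG in capitals.
LYAR, chr4:4289992-4290121, minus strand: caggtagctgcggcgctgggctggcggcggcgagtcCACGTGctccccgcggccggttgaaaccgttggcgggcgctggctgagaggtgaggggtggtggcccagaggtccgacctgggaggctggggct
NOC3L, chr10:94362910-94363039, minus strand: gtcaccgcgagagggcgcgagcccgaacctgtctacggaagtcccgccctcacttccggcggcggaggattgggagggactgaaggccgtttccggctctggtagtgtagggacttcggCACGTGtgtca
MRTO4, chr1:19251705-19251834, plus strand: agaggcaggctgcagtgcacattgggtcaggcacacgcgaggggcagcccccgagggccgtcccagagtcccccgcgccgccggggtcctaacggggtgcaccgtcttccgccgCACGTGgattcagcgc
UTP20, chr12:101280005-101280134, plus strand: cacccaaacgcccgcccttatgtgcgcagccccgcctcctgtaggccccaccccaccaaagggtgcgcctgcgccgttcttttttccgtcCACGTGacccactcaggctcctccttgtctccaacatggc
NOP10, chr15:34343107-34343236, minus strand: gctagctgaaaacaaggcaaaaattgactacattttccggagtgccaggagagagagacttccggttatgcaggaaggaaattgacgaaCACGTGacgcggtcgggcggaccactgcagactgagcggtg

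In LYAR the first letter of CACGTG lies 64 bases before the start, in UTP20 10 and in NOP10 11 bases before it, and in NOC3L and MRTO4 it is base 20 and base 15 counted from the start. NOP10 has another CACGTG 170 bases before the start, outside the stretch shown. NOP2, which ranks seventh from the bottom, holds CACGTG at base 36 of the transcript, also outside the stretch that would be shown. As to position, 13 of the 20 factors held CACGTG only in the 50 bases from the start on, against 134 of the 1248 genes. Within the 250 bases before the start, 7 of 47 factors (14.9%) and 1114 of 10123 genes held it. Factors with and without CACGTG had similar changes: the mean change over the 4 comparisons had a median of -0.95 in the 20 with CACGTG and -0.90 in the 27 without. By role, 12 of 22 small-subunit and 4 of 15 large-subunit factors had it. CCGGAAGT, a core of ETS factor sites, searched on both strands, stood in 11 of 47 factors (23.4%) and 955 of 10123 genes (9.43%), in 3 of 22 small-subunit and 6 of 15 large-subunit windows. A match is no measure of binding. MYC itself, not a member, changed by -3.31 and -3.37 in EBC-1 and by -4.92 and -4.22 in MKN-45, and by 0.014 and 0.21, not called (adjusted p = 0.927 and 0.059), in HCC827. Its part in the changes of the factors was not tested.

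Among the general nucleolar proteins, LYAR, a zinc finger protein of the nucleolus, had the lowest mean change of the whole list. It read 10.32, 10.30 and 10.31 on the DMSO arrays of EBC-1, 7.42, 7.30 and 7.65 at 24 h and 7.46, 7.59 and 7.44 at 48 h. Its MKN-45 arrays read 9.18, 9.12 and 9.15 with DMSO, 6.98, 6.86 and 6.92 at 24 h and 7.13, 7.25 and 7.26 at 48 h. All 12 treated arrays of both lines thus lay far below their DMSO arrays, by -2.85 ± 0.072 (SE, adjusted p = 1.28e-20) and -2.81 in EBC-1 and by -2.23 and -1.93 in MKN-45. The fall at 24 h was 7.22-fold in EBC-1 and 4.70-fold in MKN-45. In HCC827 LYAR read 10.98, 10.93 and 10.84 with DMSO, 10.85, 10.92 and 10.76 at 24 h, where the groups overlap (-0.07, adjusted p = 0.552), and 10.39, 10.32 and 10.28 at 48 h, all below DMSO (-0.58, adjusted p = 2.12e-06).

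TCOF1 encodes treacle, which helps polymerase I start on the rRNA genes. Its DMSO arrays read 7.71, 7.82 and 7.83 in EBC-1, against 6.36, 5.86 and 5.77 at 24 h and 6.26, 6.45 and 6.16 at 48 h. MKN-45 arrays read 7.72, 7.73 and 7.71, then 6.10, 6.06 and 6.06, then 6.11, 6.34 and 6.35. The changes were close in both lines (-1.79 ± 0.14 and -1.49 in EBC-1, -1.65 and -1.45 in MKN-45), and the difference between the lines was not called at either time (-0.14 and -0.04, adjusted p = 0.628 and 0.887). Of the other 4 TCOF1 probe sets, 1 changed by -1.79 and -1.50 at 24 h in these lines, while the 3 dimmer ones lay between -0.77 and 0.03. In HCC827 TCOF1 read 9.01, 8.92 and 8.94, then 8.87, 8.85 and 9.56 with the aberrant replicate 3 last, then 8.39, 8.45 and 8.46 (-0.53 at 48 h, adjusted p = 0.00855, and 0.0883 for TCOF1 in a fit of HCC827 alone).

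NOLC1, a scaffold that binds snoRNPs, fell by -1.96 and -2.05 in EBC-1 and by -1.22 and -0.91 in MKN-45. NPM3, a relative of nucleophosmin, fell by -1.64 and -1.70 and by -0.84 and -1.03. Nucleolin (NCL), which binds nascent pre-rRNA, fell by -0.93 and -0.99 and by -0.61 and -0.53. Nucleophosmin (NPM1), an abundant chaperone of the nucleolus, moved least of this group. It read 13.35, 13.41 and 13.38 with DMSO in EBC-1, 13.12, 13.11 and 13.15 at 24 h and 13.08, 13.11 and 13.13 at 48 h, a small fall without overlap (-0.25 ± 0.055, adjusted p = 0.000293, and -0.28). MKN-45 arrays overlapped at 24 h (12.96, 13.02 and 13.07 with DMSO, 13.08, 13.04 and 13.03 treated, 0.03, adjusted p = 0.642) and were not called at 48 h (12.90, 12.87 and 12.95, -0.11, adjusted p = 0.0899). The 48 h value of NPM1 was called without replicate 3 of HCC827 at 24 h (adjusted p = 0.00049) and was -0.20 with arrays centred, -0.27 with the mean of its probe sets and -0.44 with the external controls set equal, all called. With the external controls set equal, the MKN-45 value at 24 h was -0.32. Its other 5 probe sets lay between -0.62 and -0.16 in EBC-1 and between -0.07 and 0.08 in MKN-45 at 24 h, and 4 of the 5 carry the suffix of probe sets that may also bind related transcripts. The chosen NPM1 probe set, by its suffix, may bind related transcripts too. In HCC827 NPM1 read 13.59, 13.54 and 13.57, then 13.61, 13.62 and 13.26, then 13.49, 13.51 and 13.50, with neither time called, though array weights gave a call at 48 h (-0.07, adjusted p = 0.0217).

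**Figure D2:**
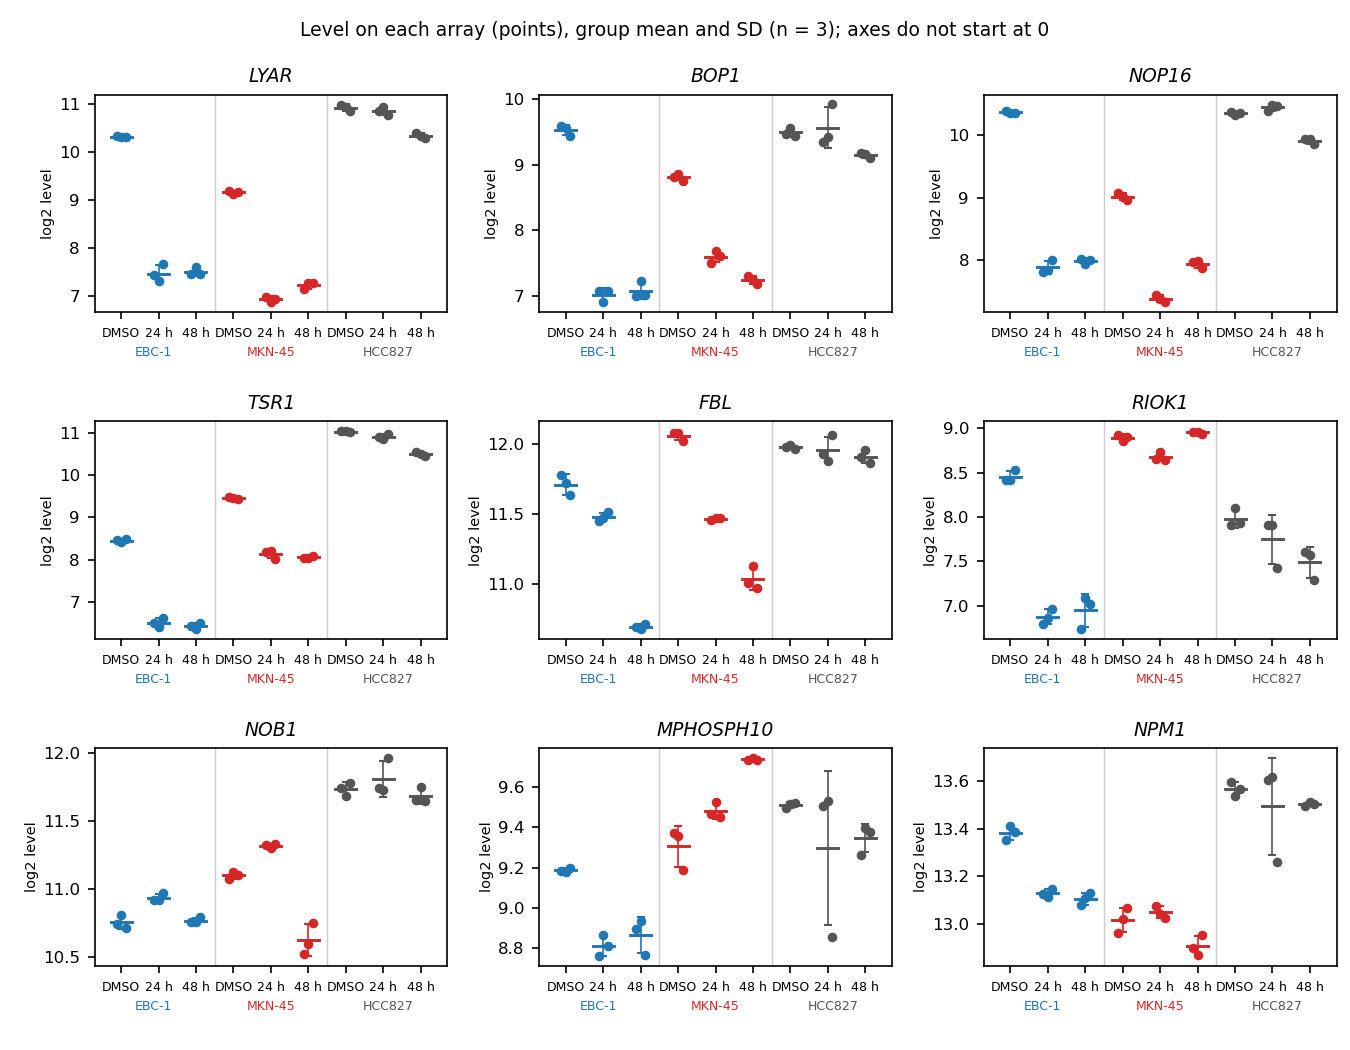
Log2 level of 9 named factors on each array (points) in the 9 groups, with the mean (line) and SD (bar, n = 3) of each group. LYAR, BOP1, NOP16 and TSR1 drop at 24 h in EBC-1 (blue) and MKN-45 (red) and stay down, RIOK1 drops in EBC-1 while its MKN-45 points stay near DMSO, FBL drops further between 24 h and 48 h, and replicate 3 of HCC827 (grey) at 24 h lies apart for MPHOSPH10 and NPM1.

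All 18 large-subunit factors fell in EBC-1 at both times and in MKN-45 at 24 h, and 17 of 18 in MKN-45 at 48 h. Their medians were -1.42, -1.44, -0.89 and -0.76 in that order. Of the PeBoW complex, which is needed to process the 28S and 5.8S rRNA precursors, BOP1 fell most. BOP1 read 9.58, 9.56 and 9.44 with DMSO in EBC-1, 7.08, 6.90 and 7.08 at 24 h and 6.99, 7.23 and 7.02 at 48 h. For MKN-45 the values were 8.81, 8.85 and 8.76, then 7.51, 7.68 and 7.60, then 7.31, 7.24 and 7.18. No treated array of either line came within 1 log2 unit of its DMSO arrays (-2.51 ± 0.10, adjusted p = 1.25e-16, and -2.45 in EBC-1, -1.21 and -1.57 in MKN-45). Its HCC827 arrays read 9.47, 9.57 and 9.44, then 9.35, 9.42 and 9.92, then 9.18, 9.16 and 9.10 (-0.35 at 48 h, adjusted p = 0.0149). The HCC827 call of BOP1 was lost without DMSO replicate 2 (adjusted p = 0.0679) or 48 h replicate 3 (0.0574), with the external controls set equal (0.0892) and in a separate fit (0.157). The partners of BOP1 fell less: PES1 by -0.78 and -0.94 in EBC-1 and by -0.71 and -0.89 in MKN-45, and WDR12 by -1.48 and -1.62 and by -0.40 and -0.33.

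NOP16, a nucleolar factor of early 60S particles, read 10.40, 10.36 and 10.36 with DMSO in EBC-1, 7.81, 7.83 and 8.0 at 24 h and 8.02, 7.93 and 7.99 at 48 h. In MKN-45 it read 9.07, 9.01 and 8.96, then 7.43, 7.38 and 7.31, then 7.97, 7.98 and 7.86. The groups did not overlap (-2.49 ± 0.057, adjusted p = 2.23e-21, and -2.39; -1.64 and -1.08), and in MKN-45 the 48 h arrays all lay above the 24 h arrays (0.56 higher, adjusted p = 6.76e-08). HCC827 read 10.38, 10.33 and 10.37, then 10.39, 10.48 and 10.47, then 9.94, 9.94 and 9.86 (-0.45 at 48 h, adjusted p = 3.29e-06).

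NOC3L, which acts in the maturation and export of 60S precursors, read 7.83, 7.70 and 7.90 in EBC-1, then 5.94, 5.44 and 5.62, then 5.84, 6.01 and 5.97. Its MKN-45 arrays read 8.06, 7.97 and 8.05, then 6.79, 6.77 and 6.87, then 6.90, 6.99 and 6.85. The groups were apart in both lines (-2.15 ± 0.22, adjusted p = 4.38e-09, and -1.87; -1.21 and -1.11). In HCC827 it read 7.84, 7.92 and 7.98, then 7.80, 7.72 and 6.34, then 7.36, 7.16 and 7.13. The 24 h value of -0.63 (adjusted p = 0.211) rests on replicate 3, and without that array it was -0.155 (adjusted p = 0.930), while without replicate 1 or 2 it was called (-0.88 and -0.84, adjusted p = 0.0282 and 0.0239). At 48 h NOC3L was at -0.70 (adjusted p = 0.0212), a call lost without DMSO replicate 2 or 3 or 48 h replicate 2 or 3 (adjusted p = 0.0563 to 0.0719), in a separate fit and with the external controls set equal.

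MRTO4, whose protein resembles the stalk protein of the 60S subunit and holds its place during assembly, read 8.97, 8.93 and 8.87 in EBC-1, then 6.50, 6.82 and 6.69, then 6.69, 6.75 and 6.76. MKN-45 arrays read 9.21, 9.26 and 9.23, then 8.34, 8.46 and 8.42, then 8.52, 8.63 and 8.34. Both lines fell without overlap, EBC-1 by far the more (-2.25 ± 0.075 and -2.19 against -0.83 and -0.74), with a called difference of -1.46 ± 0.11 at 48 h (adjusted p = 3.2e-11). HCC827 read 9.76, 9.79 and 9.83, then 9.72, 9.64 and 9.79, then 9.17, 9.27 and 9.17 (-0.59 at 48 h, adjusted p = 2.88e-06).

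The remaining large-subunit factors also fell in EBC-1 and MKN-45. NOP2, a cytosine methyltransferase of 28S rRNA, fell by -2.11 and -1.93 in EBC-1 and by -1.12 and -1.01 in MKN-45. Its treated EBC-1 arrays read 5.16 to 5.70, close to the array medians. RRS1, which helps to place the 5S rRNA, fell by -1.86 and -1.65 in EBC-1 and by -0.54 at 24 h in MKN-45, and was the only large-subunit factor not called at 48 h in MKN-45 (-0.21). The GTPase GTPBP4 (-1.63, -1.66, -0.95 and -0.80), BRIX1 (-1.60, -1.66, -1.04 and -0.87) and PPAN (-1.35, -1.21, -1.09 and -0.79), factors of early 60S particles, fell in all 4 comparisons. At 24 h in EBC-1 the group's smallest falls belonged to PES1 (-0.78), NOC2L (-0.88), NIFK, a partner of the proliferation protein Ki-67 (-0.97), and GRWD1 (-0.97).

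Like-named pairs did not always move alike between lines. RRP1 read 7.13, 7.0 and 6.93 in EBC-1, then 5.88, 5.97 and 6.12, then 5.41, 5.98 and 5.91, and in MKN-45 7.94, 8.03 and 7.92, then 6.41, 6.40 and 6.33, then 6.65, 6.52 and 6.55. Its fall was larger in MKN-45 at 24 h (-1.58 against -1.03, difference 0.55 ± 0.16, adjusted p = 0.00575) and not called different at 48 h (0.13, adjusted p = 0.503). RRP1B, its paralog, read 9.93, 9.88 and 9.95 in EBC-1, then 8.77, 8.69 and 8.72, then 8.79, 8.78 and 8.80, and in MKN-45 10.74, 10.66 and 10.71, then 10.03, 10.05 and 9.91, then 10.10, 10.00 and 10.17. Here EBC-1 fell more at both times (-1.19 and -1.13 against -0.71 and -0.61, differences of -0.48 and -0.52, adjusted p = 3.78e-06 and 1.1e-06). GNL3L, a nucleolar GTPase whose namesake GNL3 is not analysed here, read 9.05, 9.05 and 9.06 in EBC-1, then 7.88, 7.95 and 7.98, then 7.90, 8.07 and 8.01. For MKN-45 the values were 9.27, 9.11 and 9.11, then 8.21, 8.12 and 8.28, then 8.51, 8.59 and 8.54, which is a partial return toward DMSO at 48 h (0.34 above 24 h, adjusted p = 0.000186).

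In HCC827 these 3 genes fell at 48 h alone. RRP1 read 7.92, 8.09 and 7.88, then 7.90, 7.85 and 8.12, then 7.64, 7.58 and 7.54. RRP1B read 10.79, 10.75 and 10.80, then 10.74, 10.78 and 10.86, then 10.36, 10.34 and 10.38. GNL3L read 10.45, 10.50 and 10.43, then 10.55, 10.48 and 10.36, then 10.08, 10.03 and 10.13. All 48 h arrays lay below all DMSO arrays for each gene (-0.37, -0.42 and -0.38, adjusted p = 0.0156, 1.09e-06 and 8.39e-05). The call of RRP1 was lost without DMSO replicate 2 (adjusted p = 0.0897) or 48 h replicate 3 (0.0581) and with the external controls set equal (0.0677).

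Of the 25 small-subunit factors, 23 were called lower in EBC-1 at each time, and 20 and 18 in MKN-45 at 24 h and 48 h. The medians were -1.18 and -0.98 in EBC-1 and -0.58 and -0.45 in MKN-45. The UTP-A proteins, which bind the start of the pre-rRNA and are linked to its transcription, fell in EBC-1 at 24 h by -1.80 (UTP15), -1.74 (WDR43), -1.33 (UTP4), -0.84 (HEATR1) and -0.65 (WDR75). In MKN-45 at 48 h, UTP15 (-0.32) and WDR75 (-0.18) were not called, while WDR43 (-0.50), UTP4 (-0.33) and HEATR1 (-0.58) were lower. Of UTP-B, which follows UTP-A onto the precursor, WDR3 fell by -1.37 and -1.41 in EBC-1 and by -0.87 and -0.68 in MKN-45.

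UTP18, the other UTP-B protein of the list that was analysed, read 10.80, 10.81 and 10.74 in EBC-1, then 9.97, 9.97 and 10.07, then 10.09, 9.99 and 10.00. In MKN-45 it read 10.44, 10.39 and 10.45, then 9.28, 9.30 and 9.34, then 9.51, 9.48 and 9.56. All treated arrays were below DMSO, and at 24 h the fall was larger in MKN-45 (-1.12 against -0.78 ± 0.057, difference 0.34, adjusted p = 0.00121); at 48 h the difference of 0.15 was not called (adjusted p = 0.121). In HCC827 it read 10.72, 10.68 and 10.76, then 10.68, 10.66 and 10.41, then 10.33, 10.42 and 10.38 (-0.35 at 48 h, adjusted p = 8.23e-05, and 0.0539 for UTP18 with the external controls set equal). UTP20, a large scaffold protein of the processome, fell by -1.68 and -1.90 in EBC-1 and by -0.92 and -0.90 in MKN-45, from 7.40 to 7.49 and from 6.21 to 6.32 with DMSO to levels between 5.24 and 5.84, close to the array medians.

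The MPP10 complex, which joins the processome as a unit, was split. IMP4 fell by -1.18 and -1.28 in EBC-1 and by -0.58 and -0.79 in MKN-45, and IMP3 by -0.26 and -0.27 and by -0.66 and -0.40. MPHOSPH10, its largest protein, read 9.19, 9.18 and 9.20 in EBC-1 with DMSO, 8.76, 8.87 and 8.81 at 24 h and 8.89, 8.94 and 8.77 at 48 h, which is lower on every array (-0.38 ± 0.11 and -0.32, adjusted p = 0.0037 and 0.0108, the latter 0.0546 without replicate 3 at 48 h). Its MKN-45 arrays read 9.37, 9.36 and 9.19, then 9.47, 9.53 and 9.45, then 9.74, 9.74 and 9.73, which lies above all DMSO arrays at both times. The change was 0.17 at 24 h (adjusted p = 0.168, not called, and 0.00216 without replicate 3 of HCC827 at 24 h) and 0.43 at 48 h, which was called (adjusted p = 0.00106). With the external controls set equal the 48 h value of MPHOSPH10 was 0.10 and no longer called (adjusted p = 0.456). Both lines thus differed in this gene by -0.55 at 24 h and -0.75 ± 0.15 at 48 h (adjusted p = 0.00462 and 0.000185). HCC827 read 9.50, 9.52 and 9.52, then 9.51, 9.53 and 8.86, then 9.27, 9.40 and 9.38, with neither time called. Without replicate 3 of the 24 h group, MPHOSPH10 was called lower in HCC827 at 48 h (-0.16, adjusted p = 0.00827), as it was with array weights.

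NOP14 fell in all 4 comparisons (-1.43, -1.41, -1.02 and -1.06), while its binding partner NOC4L fell less (-0.45, -0.31 and -0.26, and -0.13 in MKN-45 at 48 h, not called). NOP14 was dim, at 4.67 to 4.81 on the treated arrays of MKN-45, below the array medians, and at 5.10 to 5.42 on those of EBC-1. RRP9, a protein of the U3 snoRNP, and NAT10, which acetylates 18S rRNA, fell in all 4 (-1.21, -0.96, -0.84 and -0.78, and -1.05, -0.93, -0.87 and -0.90). RRP9 read 5.01 to 5.82 on the treated arrays of both lines, close to the array medians. BMS1, a GTPase of the processome, fell in EBC-1 (-0.63 and -0.70) and was at -0.05 and -0.01 in MKN-45, not called, whereas its partner RCL1 fell in all 4 (-0.72, -0.98, -0.32 and -0.57).

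NOL6 was dim, and its probe sets disagreed. The chosen probe set read 5.73, 5.80 and 5.41 in EBC-1, then 5.69, 5.39 and 5.54, then 5.80, 5.63 and 5.70, all overlapping (-0.10 and 0.06, adjusted p = 0.41 and 0.613). MKN-45 arrays read 5.52, 5.51 and 5.62, then 5.55, 5.38 and 5.53, then 5.29, 5.45 and 5.17, called lower at 48 h (-0.25, adjusted p = 0.0395). That call of NOL6 was lost under the replicate block (adjusted p = 0.0564), with no filter, with the mean of its probe sets and without any 1 MKN-45 DMSO array or replicate 1 or 3 at 48 h. In EBC-1 at 24 h the mean of its probe sets was called lower (-0.42, adjusted p = 0.000338), and with the external controls set equal NOL6 was called lower at 24 h in EBC-1 (-0.43) and MKN-45 (-0.41). Another NOL6 probe set changed by -0.95 in EBC-1 at 24 h, and a further 2 by -0.50 and -0.14, so the change of this gene is uncertain. HCC827 read 6.56, 6.48 and 6.59, then 6.64, 6.70 and 6.51, then 6.61, 6.55 and 6.67, and its 48 h value turned from 0.07 to -0.26 with the mean of all probe sets.

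The factors of late 40S maturation, which act in and on the way to the cytoplasm, held both the deepest fall (TSR1) and the only called rise (NOB1) of the small-subunit group in EBC-1. TSR1, a GTPase-like protein that caps the 40S precursor, read 8.46, 8.41 and 8.48 in EBC-1, then 6.51, 6.41 and 6.61, then 6.44, 6.35 and 6.51. For MKN-45 the values were 9.47, 9.45 and 9.43, then 8.18, 8.21 and 8.02, then 8.04, 8.04 and 8.08. It fell without overlap by -1.94 ± 0.060 (adjusted p = 6.01e-19) and -2.02 in EBC-1 and by -1.31 and -1.40 in MKN-45. HCC827 read 11.03, 11.03 and 11.01, then 10.90, 10.86 and 10.96, then 10.55, 10.50 and 10.45, so that all arrays at 24 h were slightly below DMSO (-0.12, adjusted p = 0.254) and those at 48 h further (-0.52, adjusted p = 6.77e-07).

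RIOK1, a kinase of late 40S particles, changed far more in EBC-1 than in MKN-45. EBC-1 arrays read 8.41, 8.41 and 8.52, then 6.80, 6.86 and 6.97, then 6.74, 7.09 and 7.02 (-1.57 ± 0.11 and -1.50, adjusted p = 3.4e-12 and 7.31e-12). MKN-45 arrays read 8.92, 8.85 and 8.90, then 8.65, 8.73 and 8.65, then 8.96, 8.96 and 8.93, at -0.22 at 24 h, below DMSO on all arrays and not called (adjusted p = 0.0897), and at 0.06 at 48 h (adjusted p = 0.66), a value that was -0.27 with the external controls set equal. The 24 h value was called without replicate 3 of HCC827 at 24 h (adjusted p = 0.0151) and under 6 other alternatives, with -0.56 (adjusted p = 0.000157) when the external controls were set equal. The difference between the lines was the largest of the list at 48 h, -1.56 ± 0.15 (adjusted p = 5.88e-09). Its 2 other probe sets gave -1.44 and -1.52 in EBC-1 and -0.15 and -0.27 in MKN-45 at 24 h. In HCC827 it read 7.91, 8.10 and 7.93, then 7.91, 7.91 and 7.43, then 7.60, 7.57 and 7.29 (-0.49 at 48 h, adjusted p = 0.00158), a call of RIOK1 lost with the mean of its probe sets (0.0874) and in a separate fit (0.0711).

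PNO1, which keeps the nuclease NOB1 from its site, showed the next largest difference. EBC-1 read 9.31, 9.24 and 9.18, then 7.40, 7.36 and 7.39, then 7.43, 7.68 and 7.66 (-1.86 ± 0.067 and -1.65). MKN-45 read 8.99, 8.99 and 8.96, then 8.40, 8.48 and 8.42, then 8.81, 8.80 and 8.93, lower at 24 h (-0.55, adjusted p = 1.29e-07) and closer to DMSO at 48 h (-0.13, adjusted p = 0.0961). The 48 h value of PNO1 was called without replicate 3 of HCC827 at 24 h (adjusted p = 0.0308) or replicate 3 of MKN-45 at 48 h (adjusted p = 0.0493), and was -0.22 (adjusted p = 0.0014) with arrays centred and -0.46 (adjusted p = 0.000121) with the external controls set equal. The lines differed by -1.31 at 24 h and -1.52 ± 0.095 at 48 h (adjusted p = 2.31e-12). HCC827 read 9.79, 9.84 and 9.78, then 9.82, 9.79 and 9.58, then 9.12, 9.11 and 9.11, the smallest adjusted p of the list there at 48 h (-0.69, adjusted p = 6.42e-08). The chosen probe set may also bind related transcripts by its suffix, and the other 2 gave -2.14 and -1.84 in EBC-1 at 24 h.

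NOB1, the nuclease that makes the 3 prime end of 18S rRNA, was called higher in EBC-1 and in MKN-45 at 24 h, though both values turned to -0.15 and -0.13 with the external controls set equal. It read 10.75, 10.81 and 10.72 in EBC-1, then 10.92, 10.92 and 10.97, then 10.76, 10.76 and 10.80 (0.18 ± 0.055, adjusted p = 0.00735, and 0.01, adjusted p = 0.885). In MKN-45 it read 11.08, 11.13 and 11.10, then 11.32, 11.30 and 11.33, then 10.52, 10.60 and 10.76. There it was thus above DMSO on all arrays at 24 h (0.22, adjusted p = 0.0015, and 0.0512 for NOB1 with arrays centred) and below on all at 48 h (-0.47, adjusted p = 4.64e-08). HCC827 read 11.74, 11.68 and 11.78, then 11.74, 11.73 and 11.96, then 11.66, 11.75 and 11.64, with neither time called. It was 1 of 2 factors called higher in any of the 4 comparisons, beside MPHOSPH10, and both were also called lower in another; 9.33% of all genes tested were called in both directions.

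RRP12, an export factor, read 8.95, 8.94 and 8.81 in EBC-1, then 7.27, 7.22 and 7.42, then 7.55, 7.66 and 7.60, and was the only factor called higher at 48 h than at 24 h there (0.30, adjusted p = 0.0103). MKN-45 arrays read 8.79, 8.82 and 8.84, then 8.27, 8.32 and 8.23, then 8.42, 8.47 and 8.50, and HCC827 arrays 9.31, 9.30 and 9.23, then 9.25, 9.17 and 9.56, then 8.63, 8.67 and 8.69. It fell in EBC-1 (-1.60 ± 0.076 and -1.30), in MKN-45 (-0.54 and -0.36) and in HCC827 at 48 h (-0.62, adjusted p = 1.87e-06). LTV1, another late factor, fell by -1.75 and -1.65 in EBC-1 and by -0.70 and -0.45 in MKN-45.

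The snoRNP core proteins, which form the particles that guide methylation (box C/D) and pseudouridylation (box H/ACA) of rRNA, were lower in 7 of 7 cases in each of the 4 comparisons (medians -0.98, -1.09, -0.90 and -0.90). The paralogs NOP56 and NOP58, which sit side by side in box C/D particles, fell together. NOP56 read 11.03, 11.06 and 10.97 in EBC-1, then 9.44, 9.38 and 9.37, then 9.51, 9.53 and 9.41, and in MKN-45 10.10, 10.08 and 10.08, then 9.04, 9.02 and 8.96, then 8.96, 8.97 and 9.05 (-1.62 ± 0.055 and -1.54; -1.08 and -1.09). NOP58 read 11.38, 11.33 and 11.39 in EBC-1, then 10.05, 10.12 and 10.04, then 9.84, 9.88 and 9.87, and in MKN-45 11.12, 11.08 and 11.11, then 9.98, 10.15 and 10.07, then 10.22, 10.19 and 10.20 (-1.30 ± 0.095 and -1.50; -1.04 and -0.90). In neither of these genes did a treated array reach a DMSO array of its line.

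In HCC827, NOP56 read 11.87, 11.90 and 11.97, then 11.90, 11.92 and 12.14, then 11.52, 11.51 and 11.60 (-0.37 at 48 h, adjusted p = 2.38e-05). NOP58 read 11.62, 11.63 and 11.78, then 11.64, 11.63 and 11.02, then 11.37, 11.42 and 11.42 (-0.27, adjusted p = 0.0433). Both were below all DMSO arrays at 48 h. The call of NOP58 was lost under the replicate block (adjusted p = 0.0705), under 5 other settings and without any 1 of the 6 HCC827 DMSO or 48 h arrays (adjusted p = 0.0604 to 0.18).

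FBL, the methyltransferase of the same particles, is described in addition, after its values were seen, because it alone was called lower at 48 h than at 24 h in EBC-1. It read 11.78, 11.72 and 11.63 with DMSO, 11.45, 11.47 and 11.51 at 24 h and 10.69, 10.68 and 10.71 at 48 h, a stepwise fall (-0.23 ± 0.045 and -1.02, with -0.79 between the times, adjusted p = 9.46e-12). MKN-45 read 12.08, 12.08 and 12.02, then 11.45, 11.47 and 11.47, then 11.01, 11.13 and 10.97, also in steps (-0.60 and -1.03, with -0.43 between the times, adjusted p = 1.16e-07). In HCC827 it was at -0.02 and -0.07, not called.

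Of the box H/ACA proteins, DKC1, the pseudouridine synthase, fell by -1.74 and -1.60 in EBC-1 and by -0.98 and -0.93 in MKN-45. NHP2 (-0.98, -1.09, -0.90 and -0.65) and GAR1 (-0.90, -1.01, -0.58 and -0.28) fell less, and NOP10, the smallest protein of the particle, fell least (-0.26, -0.21, -0.33 and -0.13).

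Large-subunit factors had lower medians than small-subunit factors in EBC-1 and MKN-45. On each array, the median difference from the line's mean DMSO level was taken over the 25 small-subunit and over the 18 large-subunit factors. The small-subunit median lay above the large-subunit median on all 12 treated arrays of EBC-1 and MKN-45, by 0.098 to 0.422 in EBC-1 at 24 h, 0.207 to 0.631 at 48 h, 0.266 to 0.369 in MKN-45 at 24 h and 0.232 to 0.460 at 48 h. The means were 0.29 ± 0.17, 0.37 ± 0.23, 0.31 ± 0.054 and 0.33 ± 0.12 (SD, n = 3). In HCC827 at 48 h both medians were equally low, with a gap of 0.0028 to 0.025, and at 24 h the gap ran from -0.241 on replicate 3 to -0.022. The gap carries no p, since it depends on which factors are in the list. Among 72 other tested factors of both subunits, outside the 58, the order was the other way: the medians of 32 small-subunit and 40 large-subunit factors were -0.71 and -0.62 in EBC-1 at 24 h and -0.38 and -0.31 in MKN-45 at 24 h.

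**Figure D3:**
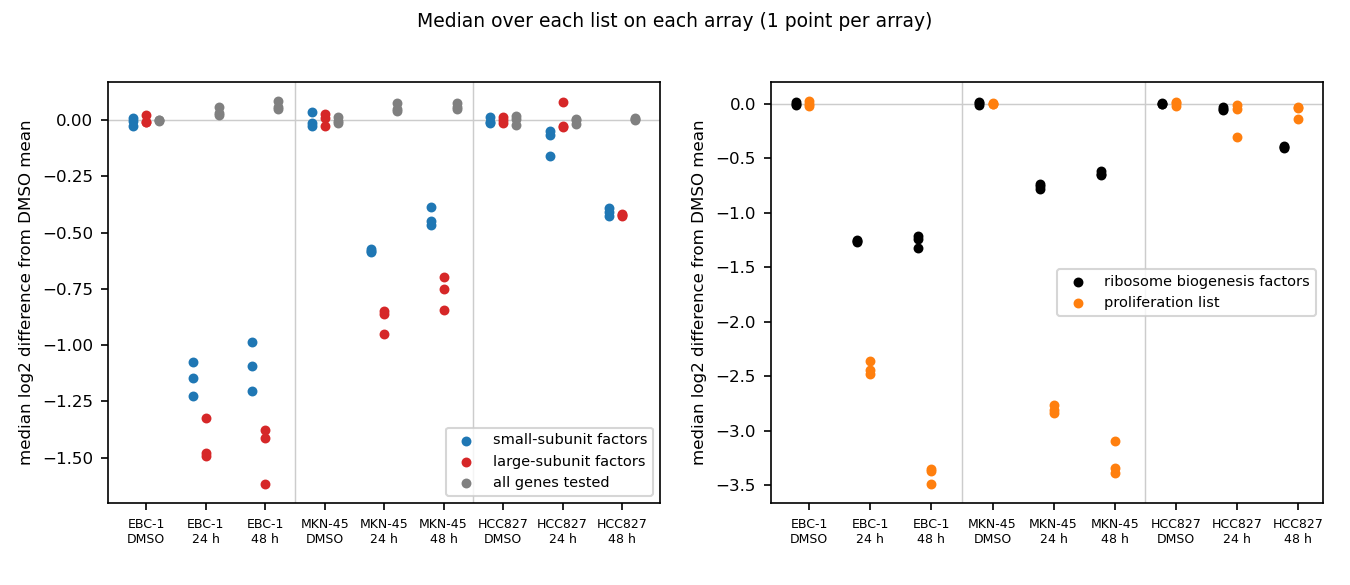
Median log2 difference from the DMSO mean of the line over each gene list, 1 point per array. Left, the 18 large-subunit factors (red) lie below the 25 small-subunit factors (blue) on all 12 treated arrays of EBC-1 and MKN-45 and level with them in HCC827 at 48 h, while all genes tested (grey) stay near 0. Right, the 56 factors (black) fell less than a list of 16 proliferation genes (orange) in EBC-1 and MKN-45, and in HCC827 at 48 h the factors are lower and the proliferation genes lie near 0.

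Those other factors followed the same course with smaller changes. The 72 other factors split into 62 lower and 4 higher, 59 and 2, 48 and 5, and 39 and 9 in the 4 comparisons of EBC-1 and MKN-45 (medians -0.69, -0.64, -0.37 and -0.25), and into 39 and 1 in HCC827 at 48 h (-0.28). RRP15 (-2.18, -2.43, -0.92 and -0.70), BYSL, which acts on late 40S particles (-2.45, -2.01, -0.85 and -0.92), and MAK16 (-1.89, -1.97, -1.19 and -0.81) had the lowest means. NOP53 rose in all 4 (1.30, 1.41, 0.53 and 0.50) and in HCC827 at 48 h (0.34, adjusted p = 0.0011). DDX51 (0.31, 0.27, 0.33 and 0.60) and ZNF622 (0.02, 0.02, 0.39 and 0.41) had the next highest means, with DDX51 not called in EBC-1 at 48 h and ZNF622 not called in EBC-1.

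A list of 16 proliferation genes moved with the factors in EBC-1 and MKN-45, where 16 of 16 were lower in each comparison (medians -2.43, -3.40, -2.83 and -3.20, and the medians of single arrays lay from -2.48 to -2.36, -3.49 to -3.35, -2.84 to -2.76 and -3.39 to -3.09). In HCC827 at 48 h, where 46 factors fell, 1 proliferation gene was lower and 2 were higher, with a median of -0.08. Its part in the change of the factors was not tested.

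EBC-1 responded more than MKN-45. The difference of the responses was called more negative in EBC-1 for 35 factors and more negative in MKN-45 for 4 at 24 h, where 23.8% and 18.4% of all genes were so. At 48 h the numbers were 40 and 1, against 29.4% and 19.6%. FBL, IMP3, RRP1 and UTP18 were those more negative in MKN-45 at 24 h (0.36, 0.40, 0.55 and 0.34), and NOB1 at 48 h (0.48 ± 0.078, adjusted p = 1.27e-05). The median differences at 48 h were -0.67 for small-subunit and -0.64 for large-subunit factors. With DMSO, 26 factors were higher in EBC-1 than in MKN-45 and 15 were lower, where 33.6% and 34% of all genes were so, and LYAR (1.16), NOP16 (1.36) and NOL10 (1.26) stood higher and IMP3 (-0.99) and RRP1 (-0.94) lower in EBC-1.

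**Figure D4:**
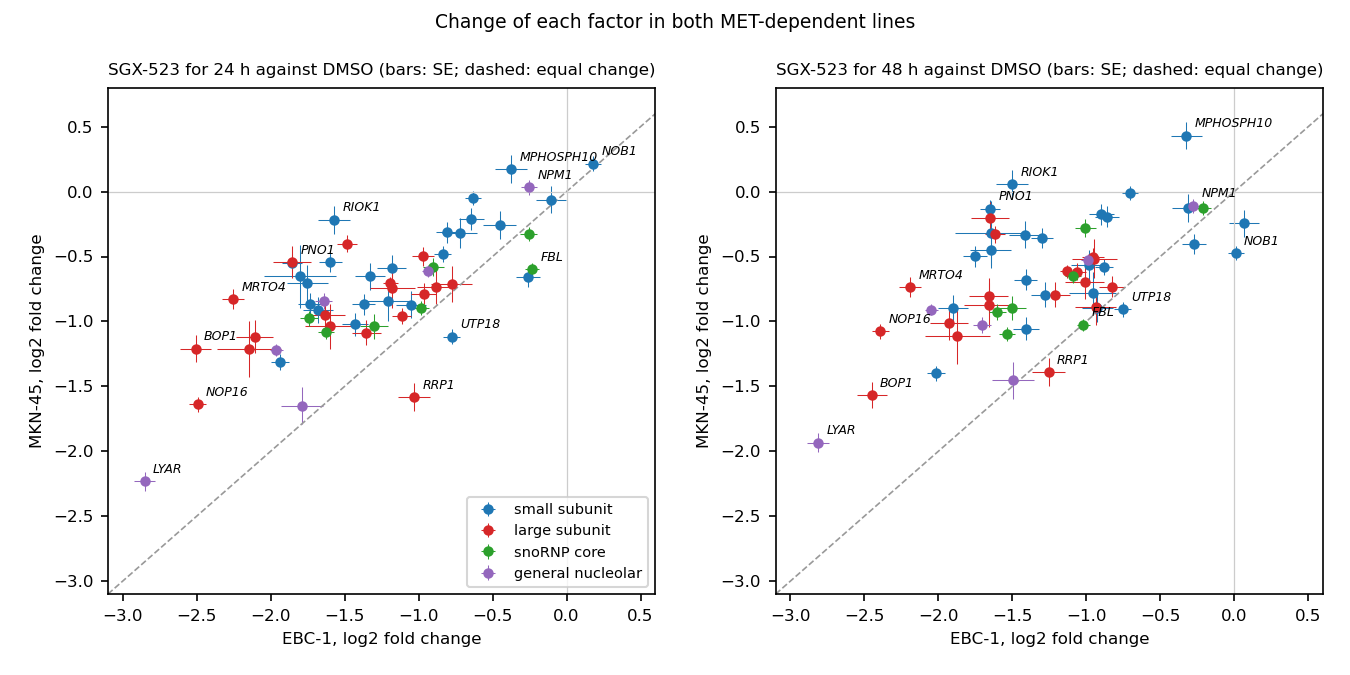
Log2 fold change in MKN-45 (vertical) against EBC-1 (horizontal) for each of the 56 factors at 24 h and 48 h, with SE bars, coloured by role; the dashed line marks equal change. Most factors lie above the line, with RIOK1, PNO1 and MRTO4 farthest at 48 h, and RRP1 and UTP18 lie below it.

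Both lines also differed from HCC827. The response was more negative in EBC-1 than in HCC827 for 51 factors at 24 h and 47 at 48 h, with 0 the other way (23.4% and 24.2% of all genes were more negative in EBC-1, 28.2% and 24.5% the other way). MKN-45 was more negative than HCC827 for 42 factors and less for 1 at 24 h, and for 24 and 5 at 48 h (22.3% and 21.5% of all genes more negative, 30.4% and 29.6% less). The 5 for which the change in MKN-45 at 48 h lay above that in HCC827 (less negative, or positive) were BMS1, MPHOSPH10, PNO1, RIOK1 and RRP12. With the external controls set equal the 48 h numbers were 41 and 0 (44.2% of all genes more negative), and with arrays centred 31 and 3 (25.2%). At 24 h without replicate 3 of HCC827, EBC-1 was more negative for 54 factors and less for 1, and MKN-45 for 47 and 1. Of all genes, 27.6% and 26.1% were then more negative, and 29.7% and 32.1% less.

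Between 24 h and 48 h the numbers of calls differed among the lines, a difference that was not itself tested. In EBC-1, FBL was lower and RRP12 higher and 54 factors were not called (6.09% of all genes were lower and 4.99% higher), with 1 lower and 0 higher when the external controls were set equal. In MKN-45, 13 factors were higher and 4 lower at 48 h than at 24 h (14.9% and 9.34% of all genes); the 4 were NOB1 (-0.69), FBL (-0.43), BOP1 (-0.36) and NPM3 (-0.19), chosen after their values were seen, and NOP16 (0.56) and PNO1 (0.42) led the others. In HCC827, 38 were lower and 0 higher (10.7% of all genes lower, 15.8% higher), and without replicate 3 of the 24 h group 49 were lower (14.7%). Leaving out that array, which widens the shared spread, also raised the calls to 6 lower and 7 higher in EBC-1 and to 7 and 24 in MKN-45, where 24% and 39.7% of all genes were called in either direction.

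HCC827 at 24 h gave 0 calls, with 0.0323% of all genes called in either direction, and 12 factors lower and 1 higher at an unadjusted limma p under 0.05 (2614 of all genes).  Without replicate 3 there were again 0 calls (0.161% of all genes called), and the 56 fold changes then lay between -0.20 and 0.13 with a median of -0.04. Leaving out replicate 1 or 2 of that group instead, which gives replicate 3 more weight, gave 10 or 13 factors called lower, where 13.2% and 14.9% of all genes were lower. MPHOSPH10, NOC3L, NOP58 and UTP18 were among those called both times. At 48 h, without replicate 3 of the 24 h group, 50 factors were lower (19% of all genes). The 10 not called at 48 h were BRIX1, FBL, MPHOSPH10, NOB1, NOC2L, NOC4L, NOL6, NOP10, NPM1 and WDR12. Medians at 48 h were -0.44 for small-subunit and -0.43 for large-subunit factors, -0.27 for the snoRNP core and -0.21 for the general nucleolar proteins.

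**Figure D5:**
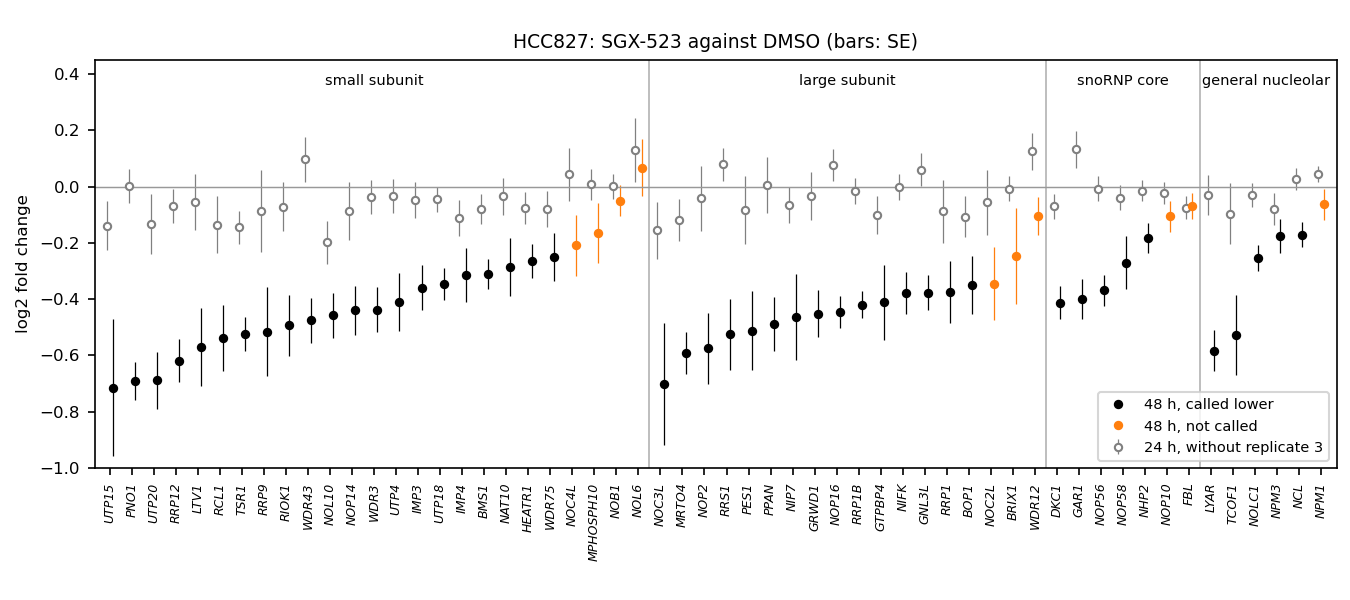
Log2 fold change of each factor in HCC827 under SGX-523 against DMSO with SE bars, by role. Open grey points, 24 h without the aberrant replicate 3, stay between -0.20 and 0.13; filled points, 48 h, lie lower, black where called lower (46 factors) and orange where not called (10 factors).

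Of 63 further probe sets of 36 factors, 61, 59, 58 and 59 had the same sign as the chosen one in the 4 comparisons of EBC-1 and MKN-45, 57, 57, 44 and 47 were called lower and 0 higher, and none was called against the chosen one. In HCC827 at 48 h, 59 had the same sign and 34 were called lower. The chosen probe sets of NOP2, WDR12, WDR75, BMS1, PPAN, GRWD1 and NHP2 carry the same suffix as that of PNO1. They may thus also bind related transcripts, as may others by their suffix, among them that of NOB1.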

How the data were processed

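Values were the log2 signals deposited by the authors for 27 Affymetrix arrays. MAS5 is named in the submitters' processing notes, and how the arrays were normalized is not stated there. Of 49395 probe sets, 44994 name a single gene, and 29747 of these read at or above the array median on at least 3 arrays. The brightest kept probe set stood for each of 12386 genes, with symbols updated through the RefSeq table. The 9 group means were fitted with limma 3.58.1 in R 4.3.3 (18 residual degrees of freedom), and p was adjusted by Benjamini-Hochberg within each of 16 comparisons. The labels call the arrays biological replicates without saying what was repeated, so p measures the spread between them. Same-numbered replicates did not pair (5 of 27 correlations above 0.1).

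The members and lists were chosen with earlier results of these data known. Array values are given for the 6 lowest and 4 highest mean changes, the 3 largest line differences each way, called rises, like-named pairs and the strongest HCC827 changes. The fit was tested on data simulated after EBC-1 at 24 h with 12386 genes, of which 50 were changed at each fold. It recovered 36%, 72%, 100% and 100% of 1.25-, 1.5-, 2- and 4-fold changes, and 5.52% of its calls were false. In the real comparison 59.2% of all genes were called, so these shares do not carry over to it. Alternatives covered scaling, filter, probe set, array weights, separate fits, the replicate block and leaving out arrays.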

Additional observations from a re-analysis of the deposited data

Results flagged for a closer look

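The responses of the lines differed by the test of the difference itself. At 24 h the difference was called for 39 factors between EBC-1 and MKN-45, for 51 between EBC-1 and HCC827 and for 43 between MKN-45 and HCC827, where 42.1%, 51.6% and 52.7% of all genes were called. At 48 h the numbers were 41, 47 and 29, where 49%, 48.7% and 51.1% of all genes were called. Counted in either direction, the 29 of 56 between MKN-45 and HCC827 is near the share of all genes.

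Among the factors with array values given, the EBC-1 minus MKN-45 difference of log2 fold change at 48 h was lowest for RIOK1 (-1.56), PNO1 (-1.52), MRTO4 (-1.46) and NOP16 (-1.32). RRS1 (-1.45) and UTP15 (-1.33), given by fold changes alone, also lay below NOP16. Among the factors with array values, the others follow. It was -0.94 for RRP12, -0.88 for LYAR, -0.88 for BOP1, -0.76 for NOC3L and -0.75 for MPHOSPH10. Smaller differences were called for TSR1 (-0.62), NOP58 (-0.61), RRP1B (-0.52), GNL3L (-0.45) and NOP56 (-0.44). NOB1 differed the other way (0.48).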

How the results depend on the processing

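Counts of called factors in EBC-1 and MKN-45 against DMSO stayed within 1.5 times their values under every alternative run. Leaving out 1 array gave 54 to 55, 52 to 54, 48 to 53 and 45 to 53 factors. The count in HCC827 at 48 h (46) was 28 with the external controls set equal, 25 in a separate fit and 34 to 50 with 1 array left out, and at 24 h (0) leaving out 1 array gave 0 to 13. Between 24 h and 48 h, the EBC-1 count (2) was 5 after quantile scaling, 4 with arrays centred, 1 with external controls, 5 under the stricter filter, 1 with the mean of probe sets, 12 with array weights, 11 in a separate fit and 1 to 13 with 1 array left out. The MKN-45 count (17) was 30 with array weights, 31 in a separate fit and 13 to 31 with 1 array left out, and the HCC827 count (38) was 22 in a separate fit and 33 to 49. The highest EBC-1 and MKN-45 values, 13 and 31, came without replicate 3 of HCC827 at 24 h. The share of promoters with CACGTG was 14.9% over the bases before the start alone. With the external controls set equal, NOB1 turned to -0.15 and -0.34 in EBC-1 and to -0.13 in MKN-45 at 24 h, NPM1 to -0.32 in MKN-45 at 24 h and RIOK1 to -0.27 in MKN-45 at 48 h, since that scaling lowers treated arrays. NOL6 in HCC827 at 48 h turned to -0.26 with the mean of its probe sets. The replicate block gave 55, 54, 51 and 46 called factors in EBC-1 and MKN-45 and 43 in HCC827 at 48 h, although the numbers do not pair the arrays. Among named factors, the block ended the calls of NOP58 in HCC827 (adjusted p = 0.0705) and NOL6 in MKN-45 (0.0564) at 48 h, called RIOK1 in MKN-45 at 24 h (0.0346) and changed no other. Differences between lines could not be run in separate fits. The cause of the other changes was not tested. Dim probe sets near the array median limit NOL6 and UTP20. On treated arrays of EBC-1 or MKN-45 such dim signal also limits NOP14, RRP9, NOP2, RCL1 and NOC3L, among others.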

Other observations

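The arrays carry control probe sets for 18S and 28S rRNA, which did not move together. The 18S probe set at the 3 prime end had means of 12.05, 12.38 and 12.63 (log2, n = 3) in EBC-1 with DMSO, at 24 h and at 48 h, and of 12.26, 12.13 and 11.95 in MKN-45. The middle 28S probe set had means of 10.20, 10.81 and 11.08 in EBC-1 and of 9.81, 10.12 and 10.27 in MKN-45, while the 28S probe set at the 5 prime end had 12.28, 12.73 and 13.24 in EBC-1 and 12.49, 12.31 and 12.10 in MKN-45. A kit that primes on poly(A) tails does not measure the amount of rRNA.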
